A study of Homo sapiens with 12 samples.

Results

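ALPP, FOXQ1, METTL7A and OLFML2A were followed through all 4 groups of the study, 4 genes among 58735 in the deposited table and among the 14577 that were abundant enough to test. They were chosen by their FPKM with and without the treatment the labels call Mix, as genes seen to be among those with the greatest loss, so these levels describe the choice and support nothing. RNA had been taken from HaCaT, an established human keratinocyte line grown in medium with 10% serum. The groups were PHGDH-siRNA+Mix, Control-siRNA+Mix, PHGDH-siRNA and Control-siRNA, with 3 libraries in each. PHGDH-siRNA cells were transfected with siRNA against PHGDH, the first enzyme of serine synthesis, and Control-siRNA cells with a control siRNA. Cells of the groups named Mix were stimulated for 24 h. The labels name neither what Mix contains nor the siRNA sequences. They do not say that replicates were grown apart, so the p-values measure the spread between these libraries, which may be technical.

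The 4 genes do unlike work. FOXQ1 encodes a forkhead transcription factor that binds DNA through a winged-helix domain; in carcinoma cells it has been linked to Wnt signalling and to the loss of epithelial traits. ALPP encodes placental alkaline phosphatase, an enzyme held at the outer cell surface by a glycosylphosphatidylinositol (GPI) anchor, which is abundant in the placenta and also made by a number of tumour lines. METTL7A encodes a methyltransferase of the endoplasmic reticulum and of lipid droplets that can transfer a methyl group to thiols. OLFML2A encodes a secreted glycoprotein with an olfactomedin domain.

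All 4 are protein-coding genes on the plus strand, and each lies on a different chromosome. In hg38, FOXQ1 (ENSG00000164379) lies on chromosome 6 at 1312440 to 1314748 and ALPP (ENSG00000163283) on chromosome 2 at 232378534 to 232382889. METTL7A (ENSG00000185432) lies on chromosome 12 at 50923472 to 50932517 and OLFML2A (ENSG00000185585) on chromosome 9 at 124777158 to 124814885. RefSeq (GRCh38.p14) gave a start-site window for all 4 genes, METTL7A under its current symbol TMT1A, and a second one within OLFML2A. The 250 bases before the start are shown for FOXQ1 (chr6:1311848-1312097, plus strand) and OLFML2A (chr9:124776883-124777132, plus strand), because they lie outside the counted gene records and let the sequences before a pair of these genes be set side by side. Capitals mark matches, on either strand, to CCAAT and GGGCGG and to the NF-kappaB consensus. The last overlaps the GGGCGG matches in OLFML2A.
FOXQ1: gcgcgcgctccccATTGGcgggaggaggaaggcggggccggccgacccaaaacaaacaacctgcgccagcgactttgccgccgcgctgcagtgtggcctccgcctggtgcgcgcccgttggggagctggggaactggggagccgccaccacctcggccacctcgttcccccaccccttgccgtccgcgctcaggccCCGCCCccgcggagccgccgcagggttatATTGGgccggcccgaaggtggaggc
OLFML2A: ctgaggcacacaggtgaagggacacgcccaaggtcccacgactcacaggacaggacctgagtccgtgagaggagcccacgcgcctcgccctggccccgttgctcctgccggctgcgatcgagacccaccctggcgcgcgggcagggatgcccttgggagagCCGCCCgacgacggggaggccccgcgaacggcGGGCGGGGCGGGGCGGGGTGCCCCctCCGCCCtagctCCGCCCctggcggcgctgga

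No motif searched was held by all 4 genes. The search covered both strands for the TATA box TATAAA, the NF-Y site CCAAT, the GC box GGGCGG, the AP-1 site TGANTCA, the STAT site TTCNNNGAA and the E-box CACGTG. The consensus sites of the glucocorticoid receptor and of NF-kappaB were searched as well. CCAAT was found 2 times before FOXQ1, at -237 and -25 from the start, and 2 times before METTL7A, at -129 and -66. It was also found 1 time before the second start of OLFML2A, at -194, but not before the upstream start. Counted by gene, with 2 windows for OLFML2A, it was thus near 3 of the 4. Counted by window, which is another unit, it was present in 32.0% of the 35116 windows in the table. GGGCGG was found 1 time before FOXQ1, at -54, and 6 times before the upstream start of OLFML2A, between -89 and -20, against 42.6% of all windows. The NF-kappaB consensus matched in OLFML2A alone, at -43, against 5.21% of all windows. The ALPP window held no match to any of these motifs. FOXQ1 and the upstream start of OLFML2A had GC-rich windows (74.0% and 75.2% GC, with 29 and 28 CpG), whereas the second OLFML2A window had 50.8% GC and 7 CpG. The windows of ALPP (62.8% GC, 5 CpG) and METTL7A (44.4% GC, 3 CpG) held fewer CpG, and both lie wholly or mostly within the counted gene record. A match describes letters only.

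As a check of the samples, PHGDH was at 19.1, 13.3 and 11.5 FPKM (fragments per length of gene and size of library, as deposited) in PHGDH-siRNA+Mix, against 31.9, 31.2 and 26.6 FPKM in Control-siRNA+Mix. It was at 23.7, 20.1 and 16.9 FPKM in PHGDH-siRNA, against 36.5, 56.2 and 45.8 FPKM in Control-siRNA, with no overlap in either pair. Each library held 16403845 to 20901128 reads, as worked out from the deposited values. Replicate 2 of both PHGDH-siRNA arms stood apart: it differed from the mean of the other 2 libraries by over 1 log2 unit, in the same direction in both arms, for 613 of 14577 genes, against 8 genes in the control arms. The count was made for replicate 2 only, so it does not show how far the other replicates differ. All 13 keratinocyte markers reached 1 FPKM in a library, with KRT14 at group means of 715 to 1640 FPKM. Their summed level was 5130 to 8610 FPKM in PHGDH-siRNA+Mix and 4850 to 5240 FPKM in Control-siRNA+Mix, against 2510 to 7020 FPKM in PHGDH-siRNA and 2030 to 2940 FPKM in Control-siRNA. Their part in the levels of the 4 genes was not tested. For other cell types, 2 of 8 fibroblast, 1 of 9 leukocyte, 0 of 7 melanocyte and 0 of 6 endothelial markers reached 1 FPKM. Summed fibroblast markers were at 1.26 to 1.48 FPKM in PHGDH-siRNA+Mix and 0.565 to 0.869 FPKM in Control-siRNA+Mix, against 1.57 to 2.02 FPKM in PHGDH-siRNA and 1.69 to 2.11 FPKM in Control-siRNA. Summed endothelial markers were at 0.153 to 0.394 FPKM in PHGDH-siRNA+Mix and 0.176 to 0.332 FPKM in Control-siRNA+Mix, against 0.753 to 0.927 FPKM in PHGDH-siRNA and 0.681 to 0.975 FPKM in Control-siRNA. Both sums were thus lower with Mix in every library of each arm, at these low levels, and their part in the levels of the 4 genes was not tested. The fibroblast sum fell mainly through COL3A1, at 0.0283 FPKM in PHGDH-siRNA+Mix against 0.641 FPKM in PHGDH-siRNA, and 0.0242 FPKM in Control-siRNA+Mix against 1.03 FPKM in Control-siRNA. COL1A1 was at 1.22 against 1.08 FPKM and at 0.625 against 0.781 FPKM in the same order. Melanocyte and leukocyte lists summed to between 0.468 and 2.96 FPKM in any library, and PTPRC, which marks leukocytes, was at 0 in every group. In such bulk samples, fewer cells that make a transcript and less of it per cell cannot be told apart.

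FOXQ1, the transcription factor, had 2.79, 0.421 and 2.06 FPKM in the PHGDH-siRNA+Mix libraries 1, 2 and 3, against 21.5, 4.15 and 20.2 FPKM in the PHGDH-siRNA libraries. In the control arm it had 4.20, 3.65 and 3.62 FPKM in Control-siRNA+Mix, against 21.8, 40.4 and 38.8 FPKM in Control-siRNA. Within each arm every library with Mix was below every library without it, as for the other 3 genes. Of all genes tested, 21.5% were free of overlap with Mix in the PHGDH-siRNA arm (11.3% higher and 10.3% lower) and 37.8% in the Control-siRNA arm (19.1% higher and 18.7% lower), and nothing is read from this, since Mix chose the genes. Across arms the groups touched, because replicate 2 of PHGDH-siRNA, at 4.15 FPKM, was no higher than replicate 1 of Control-siRNA+Mix. Mean FOXQ1 levels were 1.76 ± 1.21 FPKM in PHGDH-siRNA+Mix and 15.3 ± 9.65 FPKM in PHGDH-siRNA (SD, n = 3 each), so that 11.5% was left. They were 3.82 ± 0.328 FPKM in Control-siRNA+Mix and 33.7 ± 10.3 FPKM in Control-siRNA, with 11.4% left. The log2 fold changes of FPKM + 1 were -2.41 and -2.80 in the PHGDH-siRNA and Control-siRNA arms.

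ALPP, the surface phosphatase, had 0.807, 1.40 and 0.477 FPKM in PHGDH-siRNA+Mix, against 28.2, 16.8 and 17.6 FPKM in PHGDH-siRNA. It had 0.638, 0.516 and 0.618 FPKM in Control-siRNA+Mix, against 21.5, 23.4 and 27.2 FPKM in Control-siRNA. All 6 libraries with Mix were below all 6 without it, and the groups of the 2 siRNA arms overlapped in both conditions. The means were 0.893 ± 0.465 FPKM in PHGDH-siRNA+Mix and 20.9 ± 6.38 FPKM in PHGDH-siRNA, a 23.4-fold lower level with 4.28% left. In the control arm they were 0.591 ± 0.0656 FPKM in Control-siRNA+Mix and 24.1 ± 2.91 FPKM in Control-siRNA, a 40.7-fold lower level with 2.46% left. Without replicate 2, the PHGDH-siRNA arm stood at 2.80%, 35.7-fold lower. ALPP values carry a doubt about counting, since 33.6% of the distinct windows of 50 bases in its GENCODE 29 transcripts also occur in transcripts of another gene, mainly ALPG. The labels do not say how reads that match both genes were handled.

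METTL7A, the methyltransferase, was the least abundant of the 4. It had 0.0882, 0.529 and 0.212 FPKM in PHGDH-siRNA+Mix, against 2.34, 3.27 and 2.01 FPKM in PHGDH-siRNA. It had 0.0562, 0.187 and 0.232 FPKM in Control-siRNA+Mix, against 5.95, 5.30 and 6.83 FPKM in Control-siRNA. The libraries thus fell into 3 levels that did not overlap: both Mix groups together, PHGDH-siRNA above them and Control-siRNA highest. Mix left 10.9% of the mean in the PHGDH-siRNA arm (0.276 ± 0.228 FPKM in PHGDH-siRNA+Mix against 2.54 ± 0.653 FPKM in PHGDH-siRNA) and 2.62% in the Control-siRNA arm (0.158 ± 0.0911 FPKM in Control-siRNA+Mix against 6.03 ± 0.768 FPKM in Control-siRNA). These low levels rest on few reads, 7 to 40 per library in PHGDH-siRNA+Mix and 4 to 18 in Control-siRNA+Mix, against 153 to 256 in PHGDH-siRNA and 387 to 527 in Control-siRNA. Without replicate 2, 6.90% was left in the PHGDH-siRNA arm.

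OLFML2A, the secreted protein gene, had 1.27, 3.60 and 1.89 FPKM in PHGDH-siRNA+Mix, against 11.9, 16.2 and 12.7 FPKM in PHGDH-siRNA. It had 2.82, 2.49 and 2.86 FPKM in Control-siRNA+Mix, against 17.7, 18.6 and 19.4 FPKM in Control-siRNA. Every library with Mix was below every library without it, by at least 3.31-fold within the PHGDH-siRNA arm and 6.21-fold within the control arm. The means were 2.25 ± 1.21 FPKM in PHGDH-siRNA+Mix and 13.6 ± 2.31 FPKM in PHGDH-siRNA, with 16.5% left, and 2.72 ± 0.20 FPKM in Control-siRNA+Mix and 18.6 ± 0.823 FPKM in Control-siRNA, with 14.6% left. Lower and silenced are not the same here: none of the 4 genes was at 0 in any library, and OLFML2A kept 166 to 449 reads per library with Mix.

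**Figure D1:**
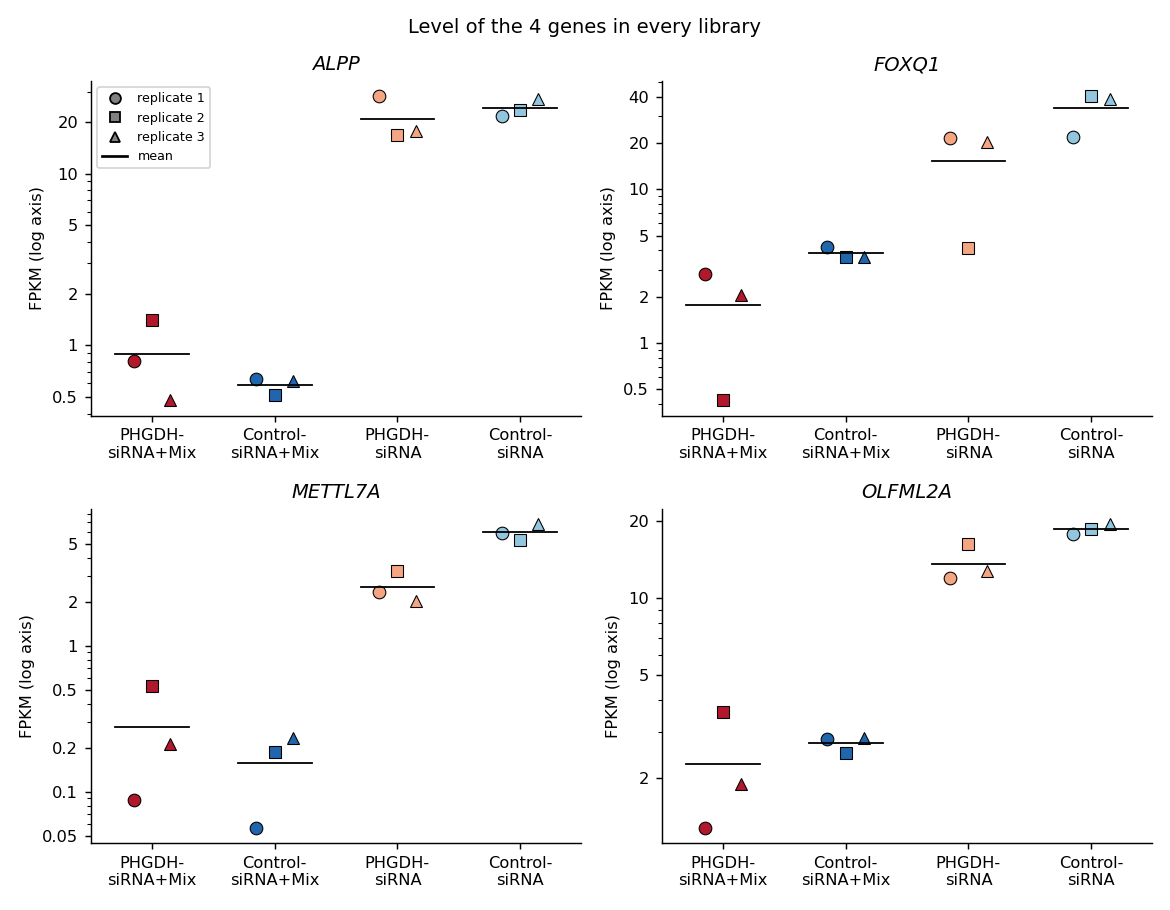
Levels of ALPP, FOXQ1, METTL7A and OLFML2A in FPKM on a log axis, by group, with 1 symbol per library and a line at the group mean. Within each siRNA arm the libraries with Mix lie below those without it, and METTL7A libraries of PHGDH-siRNA (2.01 to 3.27 FPKM) lie below those of Control-siRNA (5.30 to 6.83 FPKM).

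Order by level depended on the group. Per kilobase, FOXQ1, ALPP and OLFML2A had neighbouring means in Control-siRNA (33.7, 24.1 and 18.6 FPKM). The FOXQ1 and ALPP libraries overlapped there, whereas the OLFML2A libraries (17.7 to 19.4 FPKM) were below the ALPP libraries (21.5 to 27.2 FPKM). In Control-siRNA+Mix the order was FOXQ1, OLFML2A, ALPP and METTL7A (3.82, 2.72, 0.591 and 0.158 FPKM), with no overlap between neighbours. In PHGDH-siRNA the means ran from ALPP over FOXQ1 and OLFML2A to METTL7A (20.9, 15.3, 13.6 and 2.54 FPKM), and METTL7A alone was clear of the others. In PHGDH-siRNA+Mix, where the order was OLFML2A, FOXQ1, ALPP and METTL7A (2.25, 1.76, 0.893 and 0.276 FPKM), each gene overlapped its neighbours.

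Ranked by the log2 fold change of FPKM + 1 among the 14577 genes tested, ALPP stood 1st of all falls in both arms. FOXQ1 stood at rank 3 in both, OLFML2A at rank 4 under PHGDH siRNA and rank 10 under control siRNA, and METTL7A at rank 25 under PHGDH siRNA and rank 5 under control siRNA. Of the 10 largest falls in each arm among genes with at least 1 FPKM without Mix, 6 genes were shared. The 4 genes made up 3 of 10 in the PHGDH-siRNA arm and 4 of 10 in the control arm. KRT13, a keratin of mucosal epithelia, stood between ALPP and FOXQ1, with 8.89 ± 8.19 FPKM in PHGDH-siRNA+Mix and 101 ± 120 FPKM in PHGDH-siRNA (SD, n = 3 each), and 7.38 ± 0.712 FPKM in Control-siRNA+Mix and 108 ± 40.8 FPKM in Control-siRNA. DKK1, a secreted Wnt inhibitor, had 15.5% left in the control arm, and the long noncoding RNA AC068580.2 had 0.927% left there and was listed at 0 in PHGDH-siRNA+Mix. ALDH3A1 (8.21% left), AKR1B10 (6.56%) and OR4C6 (11.5%) completed the 10 of the control arm. ID3, KRT80, LFNG and CLU, with 15.5% to 26.2% left, completed those of the PHGDH-siRNA arm. Just outside the 10 were CLU in the control arm (log2 fold change -2.34, against -2.40 for OLFML2A) and NMU in the PHGDH-siRNA arm (-1.84). A scale without the added 1 orders the genes otherwise. By the percentage left, among genes with at least 1 FPKM without Mix, ALPP, METTL7A, FOXQ1 and OLFML2A ranked 13, 31, 33 and 45 of 11261 in the PHGDH-siRNA arm and 21, 22, 45 and 62 of 11150 in the control arm.

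**Figure D2:**
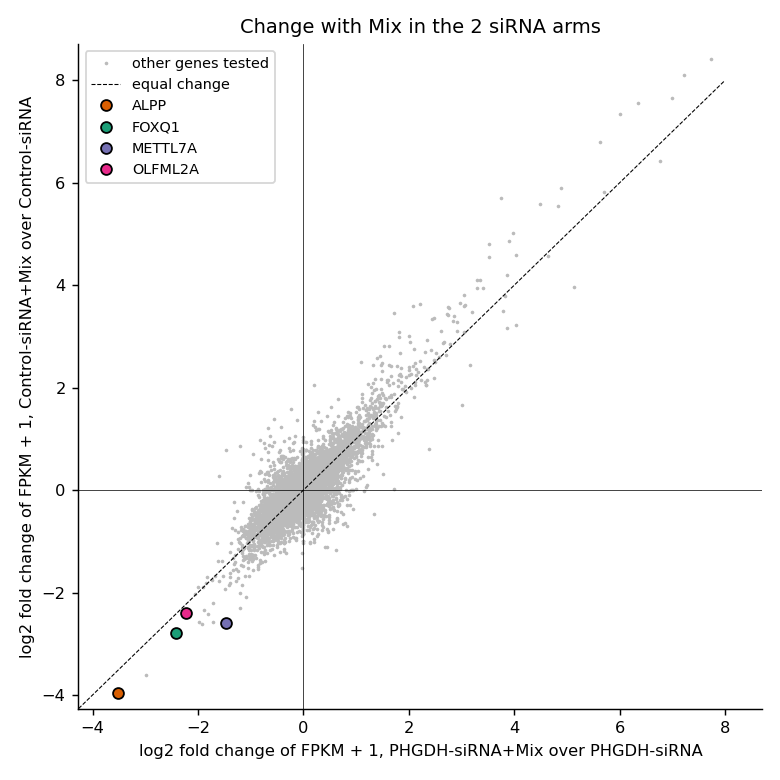
Log2 fold change of FPKM + 1 with Mix for every gene tested, with the PHGDH-siRNA arm on the horizontal axis and the Control-siRNA arm on the vertical axis; the dashed line marks equal change. ALPP lies at the lower end (-3.52 and -3.97), and METTL7A lies below the line (-1.47 and -2.60).

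PHGDH siRNA against control siRNA was not the comparison that chose the genes, and none of the 4 passed the test in it. Without Mix, limma with Benjamini-Hochberg adjustment called 0 of the 4 genes and 0.0412% of all genes (6 of 14577; 0.0137% higher and 0.0274% lower). With Mix it called 0 of the 4 and 0.0206% of all genes (3 of 14577; 0.0137% higher and 0.00686% lower). METTL7A was nearest to a call without Mix: 2.54 ± 0.653 FPKM in PHGDH-siRNA against 6.03 ± 0.768 FPKM in Control-siRNA, a 2.37-fold lower mean, lower in 3 of 3 libraries (log2 fold change -1.0, SE 0.169, 95% interval -1.37 to -0.63). It ranked 13 of 14577 by raw p (0.000102), and its adjusted p of 0.114 in limma missed the threshold. The call was reached with quantile normalization (adjusted p = 0.048) and without replicate 2 of both PHGDH-siRNA arms (-1.14, adjusted p = 0.0135); over all alternatives the adjusted p in limma ran from 0.0135 to 0.597. With Mix the difference was 0.13 (95% interval -0.24 to 0.50, adjusted p = 0.979 in limma), at the few reads given above. METTL7A means in PHGDH-siRNA+Mix and Control-siRNA+Mix (0.276 and 0.158 FPKM) were under the filter of 0.5 FPKM. The gene thus entered this test and the interaction only through the groups without Mix, and little can be read from its value with Mix.

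FOXQ1 was lower under PHGDH siRNA in both conditions without overlap between the groups, 2.21-fold without Mix and 2.18-fold with Mix, but the limma intervals were wide (log2 fold change -1.31, -2.48 to -0.14, adjusted p = 0.717 without Mix; -0.92, -2.09 to 0.25, adjusted p = 0.979 with Mix). Replicate 2 was the lowest library in both PHGDH-siRNA groups. Without replicate 2 the FOXQ1 means of PHGDH-siRNA+Mix and PHGDH-siRNA were 2.42 and 20.8 FPKM, and the fold against control siRNA was 1.58 with Mix and 1.62 without. The gap without Mix was narrow, with 21.5 FPKM in the highest PHGDH-siRNA library and 21.8 FPKM in the lowest Control-siRNA library. OLFML2A was 1.36-fold lower without Mix, again without overlap (-0.43, -0.91 to 0.05, adjusted p = 0.832 in limma), and 1.21-fold lower with Mix, where the groups overlapped (-0.26, -0.73 to 0.22, adjusted p = 0.979). Without PHGDH-siRNA+Mix replicate 2, OLFML2A was 1.72-fold lower with Mix (-0.54), and the remaining libraries, at 1.27 and 1.89 FPKM, were below all 3 of Control-siRNA+Mix. ALPP, whose groups overlapped in both conditions, differed by -0.23 without Mix (-0.70 to 0.24, adjusted p = 0.988 in limma) and by 0.22 with Mix (-0.24 to 0.69, adjusted p = 0.979).

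Counted by overlap, 3 of the 4 genes were lower under PHGDH siRNA in every library without Mix, where 5.3% of all genes tested were (4.89% were higher, 10.2% either way). With Mix 1 of the 4 was, where 7.33% of all genes were (7.01% were higher, 14.3% either way). The Control-siRNA libraries enter both this comparison and the Mix comparison that chose the genes, and a gene high in them by chance would have been favoured by that choice. The difference averaged over both Mix conditions gives equal weight to the groups with and without Mix. It was -1.12 for FOXQ1 (95% interval -1.94 to -0.29, adjusted p = 0.295), -0.44 for METTL7A (-0.70 to -0.17, adjusted p = 0.18), -0.34 for OLFML2A (-0.68 to -0.01, adjusted p = 0.44) and 0.00 for ALPP (-0.33 to 0.33, adjusted p = 0.997) in limma, with 0 of the 4 and 0.487% of all genes called (0.254% higher and 0.233% lower). Without replicate 2 of both PHGDH-siRNA arms, METTL7A (-0.58, adjusted p = 0.0136) and OLFML2A (-0.55, adjusted p = 0.012) passed, in a fit that called 492 genes in all, against 71 with these libraries. No other pair of same-numbered libraries was left out for comparison. The averaged fits take PHGDH-siRNA+Mix and PHGDH-siRNA libraries as independent, but same-numbered ones deviated together (r = 0.69, 0.775 and 0.459). Their intervals may thus be too narrow and their p-values too low.

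Whether Mix changed the genes by a different amount under PHGDH siRNA than under control siRNA was tested as an interaction, which called 0 of 14577 genes (0% in either direction, with 250 at a raw p under 0.05 and 0 calls with voom). This difference is made of the Mix changes that chose the genes, and a control-arm change that was large by chance would give a positive value, as all 4 genes had, so their p-values are not independent of that choice. METTL7A had the largest difference of the 4, 1.13 on the log2 scale of FPKM + 1 (95% interval 0.60 to 1.65). Its raw p of 0.000629 ranked 7 of all genes, and its adjusted p was 1 in limma. The log2 change was larger in size in the Control-siRNA arm, where METTL7A was also higher without Mix. Over the alternatives the adjusted p in limma was 0.33 to 1, and with voom the difference was 1.88. The differences of ALPP (0.45, -0.21 to 1.11), FOXQ1 (0.39, -1.26 to 2.04) and OLFML2A (0.18, -0.50 to 0.85) had intervals that spanned 0, and that of FOXQ1 was -0.30 without PHGDH-siRNA replicate 2.

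**Figure D3:**
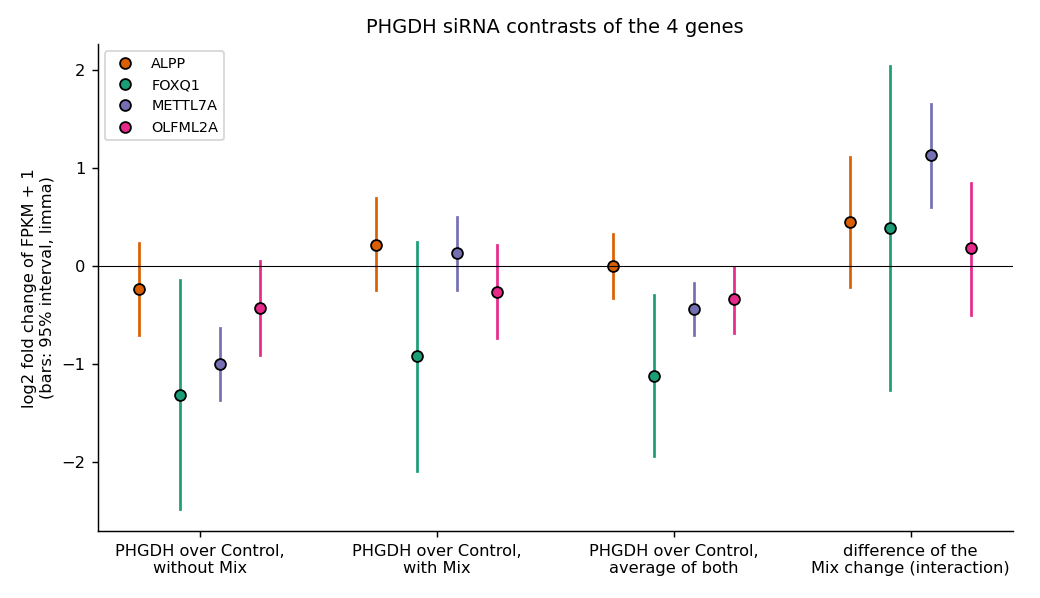
Log2 fold changes of FPKM + 1 for PHGDH siRNA over control siRNA without Mix, with Mix and averaged over both, and the difference of the Mix change between the arms; points are limma estimates and bars their 95% intervals. Intervals leave out 0 for FOXQ1 and METTL7A without Mix, and for FOXQ1, METTL7A and OLFML2A in the average. That of METTL7A in the interaction does so too, but nothing is read from it. The interaction is made of the Mix changes that chose the genes, and METTL7A was under the filter in the groups with Mix. None of the 4 genes passes after adjustment over 14577 genes.

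In replicate 2 of the PHGDH-siRNA arms, the pair of libraries that stood apart, the 4 genes did not go one way. FOXQ1 was lower there, by 1.26 log2 units in PHGDH-siRNA+Mix and 2.08 in PHGDH-siRNA (0.421 against 2.42 FPKM and 4.15 against 20.8 FPKM). OLFML2A was higher, by 0.84 and 0.37 log2 units, and so was METTL7A, by 0.41 and 0.43. ALPP was higher in PHGDH-siRNA+Mix by 0.55, and in PHGDH-siRNA, at 16.8 FPKM, it was close to replicate 3 (17.6 FPKM) and below replicate 1 (28.2 FPKM). In the control arms the replicate 2 libraries differed from the others by -0.23 to 0.46 log2 units for these genes. The coefficients of variation of the 4 genes were 52.1% to 82.3% in PHGDH-siRNA+Mix against 7.35% to 57.6% in Control-siRNA+Mix.

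Over the 12 libraries, the profile of FOXQ1 was most like that of C9orf3, which encodes an aminopeptidase, SYT12, a synaptotagmin, and FBP1, the fructose-1,6-bisphosphatase of gluconeogenesis (Pearson r = 0.993, 0.991 and 0.987 on log2(FPKM + 1)). Inside each condition r was 0.98, 0.99 and 0.98 over the 6 libraries without Mix and 0.98, 0.94 and 0.93 over the 6 with Mix. These values lean on replicate 2 of the PHGDH-siRNA arms, where FOXQ1 and these genes were all lowest within the group. The r without that replicate is not given. Each set of 6 libraries also spans both siRNA groups. FBP1 had 0.888, 0.155 and 0.808 FPKM in PHGDH-siRNA+Mix, against 3.33, 1.02 and 2.93 FPKM in PHGDH-siRNA. It had 0.825, 1.06 and 1.06 FPKM in Control-siRNA+Mix, against 4.30, 5.85 and 5.84 FPKM in Control-siRNA. Like FOXQ1, it was lowest in replicate 2 of each PHGDH-siRNA arm and, among the Control-siRNA libraries, in replicate 1.

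**Figure D4:**
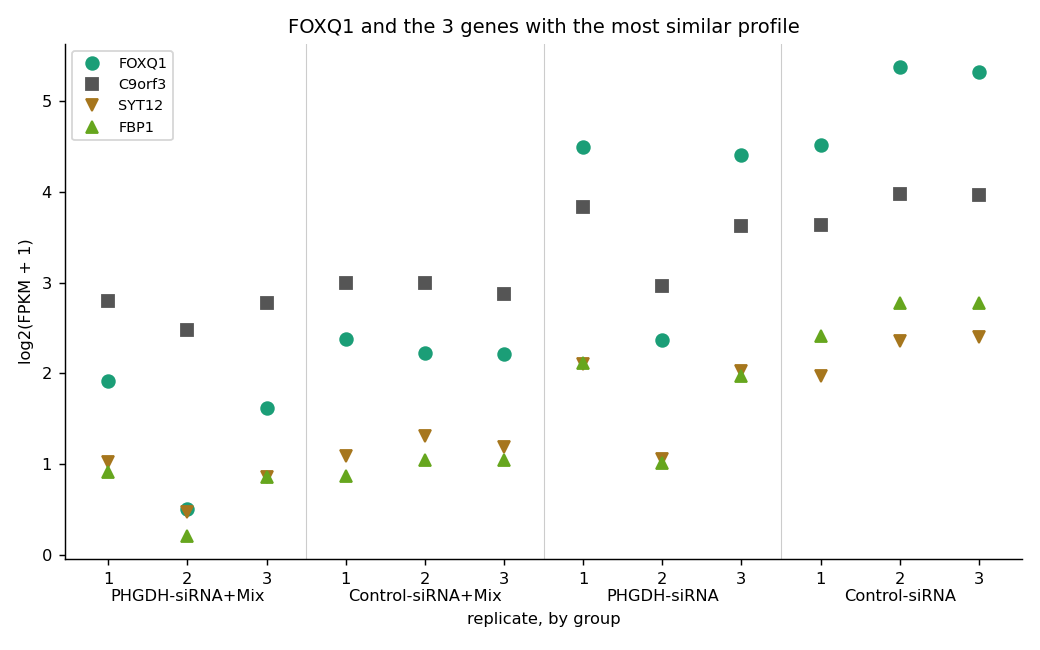
Levels of FOXQ1 and the 3 genes with the most similar profile, C9orf3, SYT12 and FBP1, as log2(FPKM + 1) in each library. All 4 are lowest in replicate 2 within both PHGDH-siRNA groups.

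METTL7A was most like GALM, which interconverts forms of galactose, the noncoding LINC01224 and ZBTB7C, a zinc finger protein (r = 0.988, 0.985 and 0.984, with 0.95, 0.91 and 0.94 within the 6 libraries without Mix and 0.72, 0.93 and 0.48 within the 6 with Mix). LINC01224 averaged 0.886 FPKM in PHGDH-siRNA+Mix and 0.848 FPKM in Control-siRNA+Mix, and 3.53 FPKM in PHGDH-siRNA and 5.34 FPKM in Control-siRNA, the same order of levels without Mix as METTL7A. OLFML2A was most like MTHFD1, a folate cycle enzyme, TFDP1, the partner of E2F factors, and the ligand gene WNT10A (r = 0.989, 0.987 and 0.986, with 0.80, 0.70 and 0.89 within the 6 libraries without Mix and 0.94, 0.93 and 0.92 within the 6 with Mix). ALPP was most like TRIM16L, NMU and the nuclear pore gene NUP93 (r = 0.982, 0.981 and 0.981), with 0.58, -0.33 and 0.85 within the 6 libraries without Mix and 0.73, -0.10 and -0.34 within the 6 with Mix. Among the 4 themselves r ran from 0.81 to 0.97 over 12 libraries, which all carry the split by Mix that chose the genes. Within the 6 libraries without Mix, METTL7A and OLFML2A had r = 0.94, against 0.61 with Mix. FOXQ1 had r = -0.88 with METTL7A and -0.81 with ALPP within the 6 libraries with Mix, against 0.44 and 0.70 within the 6 without. Each set of 6 libraries holds both siRNA groups. METTL7A and OLFML2A were each lower in PHGDH-siRNA than in Control-siRNA without overlap, so their r without Mix includes that group difference. These values describe libraries that share 2 outlying samples, and profiles with so few points carry no test.

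Most relatives of the 4 genes were not called with Mix, like most genes tested. Among all genes, Mix gave 1291 calls in the PHGDH-siRNA arm (8.86%, with 5.22% higher and 3.64% lower) and 1391 in the Control-siRNA arm (9.54%, with 5.62% higher and 3.92% lower). In the PHGDH-siRNA arm same-numbered libraries deviated together, and with the replicate as a block in that arm 3284 genes were called.

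Of 21 other forkhead genes tested, 1 rose and 3 fell in the PHGDH-siRNA arm (2 and 5 with the block) and 1 rose and 4 fell in the Control-siRNA arm. The shares called were 19.0% and 23.8%, against 8.86% and 9.54% of all genes. The medians were -0.02 and -0.10, against 0.00 for all genes in both arms. FOXC1, which lies near FOXQ1 on chromosome 6, had 5.67 FPKM in PHGDH-siRNA+Mix and 10.7 FPKM in PHGDH-siRNA (-0.81, adjusted p = 0.000733 in limma). It had 5.91 FPKM in Control-siRNA+Mix and 13.5 FPKM in Control-siRNA (-1.07, adjusted p = 8.53e-05). FOXF2 from the same cluster was not called (-0.43 and -0.44, adjusted p = 0.576 and 0.587). FOXM1, which drives mitotic genes, fell in both arms (-1.03 and -0.80), as did FOXA1 (-0.90 and -0.91), while FOXL1 rose (0.74 in both). FOXO6 fell in the Control-siRNA arm (-0.88, adjusted p = 0.0017) and was at -0.42 under PHGDH siRNA (adjusted p = 0.0744); the difference between the arms was not called.

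Among 21 other METTL genes, 0 were called in the PHGDH-siRNA arm (2 lower with the block) and 1, METTL17, fell in the Control-siRNA arm (-0.42, adjusted p = 0.0366 in limma). METTL17 was at -0.39 in the PHGDH-siRNA arm (adjusted p = 0.052), and its difference between the arms was not called. METTL7B, the nearest relative of METTL7A, averaged 0.0934 FPKM in PHGDH-siRNA+Mix and 0.332 FPKM in PHGDH-siRNA, and 0.109 FPKM in Control-siRNA+Mix and 0.623 FPKM in Control-siRNA. It was not called (adjusted p = 0.464 and 0.108). METTL3 and METTL14, which form the main enzyme that methylates adenosine in mRNA, differed by -0.23 to 0.18 and were not called in either arm. Of 4 other olfactomedin domain genes tested, OLFM2, OLFM4, ADGRL1 and ADGRL2, 0 were called in either arm, with changes of -0.69 to 0.48 and 0 calls with the block. OLFML2B, the closest relative of OLFML2A, was under the level needed for the test.

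ALPG, the germ cell alkaline phosphatase and near copy of ALPP 24.0 kb downstream, was the only other alkaline phosphatase tested (91.7% identity between their longest coding transcripts). It averaged 0.065 FPKM in PHGDH-siRNA+Mix and 2.04 FPKM in PHGDH-siRNA (-1.09, adjusted p = 0.203 in limma, called lower with the block), and 0.0218 FPKM in Control-siRNA+Mix and 0.763 FPKM in Control-siRNA (-0.79, adjusted p = 0.386). Its mean in PHGDH-siRNA rests on replicate 2, with 5.39 FPKM against 0.365 FPKM in the other 2 libraries. ALPP had 16.8 FPKM in that library, against 28.2 and 17.6 FPKM in replicates 1 and 3.

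**Figure D5:**
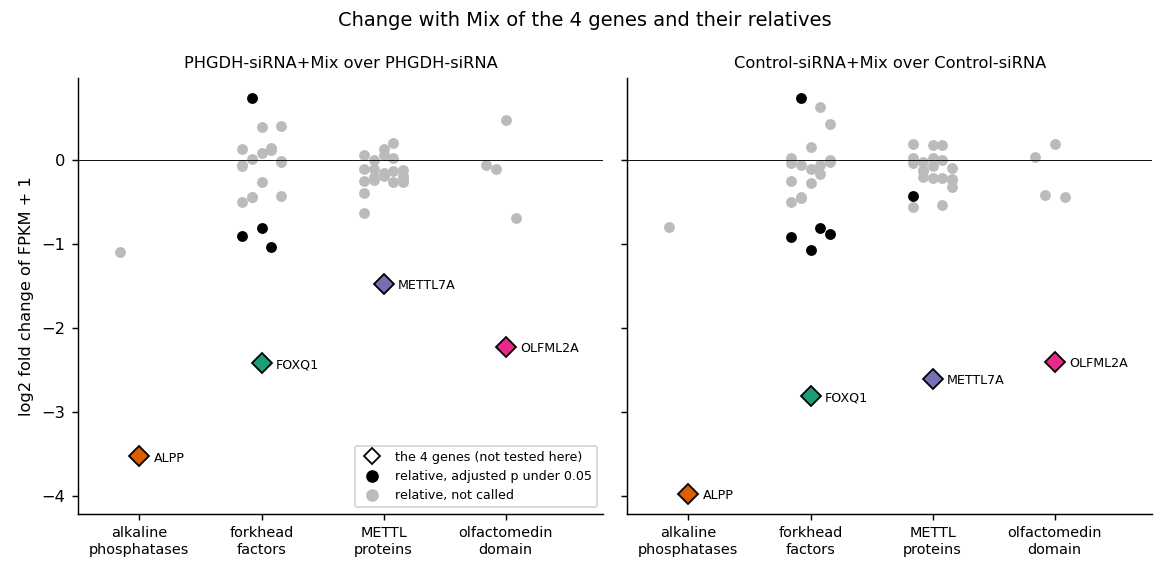
Change with Mix, as log2 fold change of FPKM + 1, of the 4 genes (diamonds, not tested) and of the tested relatives in their families (circles, black where limma's adjusted p was under 0.05), with the PHGDH-siRNA arm on the left and the Control-siRNA arm on the right. Each of the 4 genes, chosen for this fall, lies below all of its relatives in both arms on this scale. The scale understates changes of low genes such as ALPG and OLFM4. With Mix against without, ALPG averaged 0.065 against 2.04 FPKM and OLFM4 0.037 against 0.92 FPKM in the PHGDH-siRNA arm. In the Control-siRNA arm ALPG averaged 0.0218 against 0.763 FPKM and OLFM4 0.075 against 0.467 FPKM.

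Of the 8 nearest tested genes on either side of the 4, 0 were called with Mix in the PHGDH-siRNA arm and 2 in the Control-siRNA arm, where 8.86% and 9.54% of all genes were. The nearest tested genes before the 4, EXOC2 for FOXQ1 (619.3 kb away), DIS3L2 for ALPP, ATF1 for METTL7A and NR6A1 for OLFML2A, differed by -0.22 to 0.20 with Mix and were not called in either arm. After OLFML2A, the ribosomal protein gene RPL35 differed by -0.21 and -0.04. After METTL7A, SLC11A2, an iron transporter, stood at 0.52 under PHGDH siRNA (adjusted p = 0.0552 in limma) and rose by 0.63 under control siRNA (adjusted p = 0.0224). The other neighbour called was LINC01394, a noncoding RNA on the opposite strand 7.0 kb after FOXQ1. It averaged 0.129 FPKM in PHGDH-siRNA+Mix and 1.19 FPKM in PHGDH-siRNA (-0.82, adjusted p = 0.219), and 0.132 FPKM in Control-siRNA+Mix and 1.97 FPKM in Control-siRNA (-1.37, adjusted p = 0.0388). Only ALPP overlapped another gene in the table, the antisense AC068134.1, which was at 0 in every group.

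Genes tied to the known surroundings of the 4 were counted from lists written from textbook knowledge, and pairs of values give the log2 change in the PHGDH-siRNA arm and then in the Control-siRNA arm. Of 22 other GPI-anchored surface proteins tested, 6 rose and 3 fell in the PHGDH-siRNA arm and 7 rose and 2 fell in the Control-siRNA arm (40.9% called in each, against 8.86% and 9.54% of all genes), with medians of 0.14 and 0.19. With the block, 7 rose and 4 fell. Among those that rose in both arms were CD59, which blocks the complement pore (1.01 and 1.16), PLAUR, the urokinase receptor (1.33 and 1.45), the ephrin EFNA1 (1.24 and 1.58) and the prion protein gene PRNP (1.26 and 0.98). SEMA7A rose in both as well (1.55 and 1.26). LY6E fell in both (-0.94 and -1.13), as did BST2 (-0.85 in both). Among all genes, too, more were called higher than lower in both arms. Of 6 enzymes and transporters of extracellular phosphate and nucleotides, 2 rose in both arms (3 with the block) and 0 fell: NT5E, also among the anchored proteins above, which makes adenosine from AMP (1.38 and 1.34), and ENTPD3, which removes phosphate from nucleotides (2.48 and 2.54). The share called was 33.3% in each arm.

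Of 14 other lipid droplet proteins, 1 rose and 1 fell in the PHGDH-siRNA arm (3 and 1 with the block) and 2 rose and 2 fell in the Control-siRNA arm. The lipase gene PNPLA3 fell in both (-0.81 and -1.06), and the droplet coat gene PLIN3 rose in both (0.70 and 0.71). Of 13 epithelial and mesenchymal genes, read because FOXQ1 has been linked to that balance, 1 rose and 1 fell in each arm (2 and 3 with the block in the PHGDH-siRNA arm). P-cadherin, CDH3, rose (1.10 and 1.24) and GRHL2, an activator of epithelial genes, fell (-0.50 and -0.68). Of 6 Wnt target genes, 0 were called in the PHGDH-siRNA arm (2 lower with the block) and 1, DKK1, fell in the Control-siRNA arm (-2.58, adjusted p = 0.0445 in limma). DKK1 was at -1.98 in the PHGDH-siRNA arm (adjusted p = 0.119), and its difference between the arms was not called. Of 11 genes that glucocorticoids raise in other cells, 5 rose and 1 fell in each arm (7 and 3 with the block), the largest being ANGPTL4 (2.75 and 3.41), SGK1 (2.09 and 2.75) and MT2A (2.32 and 2.06), while the glutamine synthetase gene GLUL fell (-0.45 and -0.67). In the same order of arms, the shares called were 14.3% and 28.6% for lipid droplet proteins and 15.4% in each for epithelial and mesenchymal genes. They were 0.0% and 16.7% for Wnt targets and 54.5% in each for glucocorticoid-raised genes. Of all genes, 8.86% and 9.54% were called.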

How the data were processed

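RNA-seq of 12 HaCaT libraries in 4 groups of 3 was read from a table of FPKM that the authors deposited for 58735 genes, 1 column per library. The authors also deposited a gene length in bases (recorded as a score, unscaled). Per the submitters' processing notes, the build was hg38 and the tools were featureCounts 1.5.0-p3, HISAT2 2.0.5 and CASAVA; no settings or formula were stated. FPKM multiplied by length was a whole multiple of 1 step per library (100% of values under 200 reads within 0.05 reads), which gave reads per gene. The library size implied by the step was 0.93 to 1.10 times their sum.

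Genes with a mean of at least 0.5 FPKM in 1 group (14577) were fitted with limma 3.58.1 (R 4.3.3) on log2(FPKM + 1), with trend and robust options, a mean per group and 8 residual degrees of freedom. P-values were two-sided, Benjamini-Hochberg adjusted over all genes tested, with 0.05 as the threshold. Fold changes on this scale understate changes of low genes. An exact test of 3 against 3 libraries cannot go below 0.1. The script was run on simulated counts. It recovered 51 of 67, 65 of 67 and 66 of 66 genes changed 1.5-, 2- and 4-fold, with 15 false calls. The simulation gave all genes the same small spread and no shared deviation of same-numbered libraries, so it checks the code only. Intervals cover 95%.

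The members and lists were chosen with earlier results of these data known. Beside the members, the text names their tested relatives, the nearest tested gene on each side and PHGDH. It also names the 3 genes with the highest Pearson r per member and the 10 largest falls per arm. From each other list up to 4 called genes are named, except the GPI-anchored list, where more are. LY6E, BST2 and GLUL are given as genes that fell. FOXF2, METTL3 and METTL14 are named as relatives, and OLFML2B, AC068134.1, COL1A1 and COL3A1 were named after their values were seen. Alternatives were another pseudocount, no filter, quantile normalization, voom with TMM on recovered reads, other eBayes options, fits of the compared groups alone, a replicate block and left-out libraries. Same-numbered libraries correlated above 0.1 in 5 of 18 pairs (-0.387 to 0.775), in all 3 pairs only between PHGDH-siRNA+Mix and PHGDH-siRNA (0.69, 0.775 and 0.459). A block in that arm was therefore added after the data were seen.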

Additional observations from a re-analysis of the deposited data

How the results depend on the processing

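The differences of the 4 genes with PHGDH siRNA kept their direction and their side of the threshold except as follows, and except for ALPP averaged over Mix, which lay at 0 and ran from -0.12 to 0.08 with single libraries left out. METTL7A without Mix passed with quantile normalization (-1.02, adjusted p = 0.048) and without replicate 2 of both PHGDH-siRNA arms (-1.14, adjusted p = 0.0135), and leaving out that pair also brought the averaged difference past the threshold for METTL7A (-0.58) and OLFML2A (-0.55). It put METTL7A with Mix at -0.01, against 0.13. When the groups with Mix were fitted alone, METTL7A was under the filter and had no value. FOXQ1 had an interaction of -0.04 with voom and 0 with a pseudocount of 0.1, against 0.39, and METTL7A one of 1.88 with voom and 1.67 with that pseudocount, against 1.13. With single libraries left out, the interaction of FOXQ1 ran from -0.30 to 0.81 and that of OLFML2A from -0.11 to 0.40, and METTL7A with Mix from -0.01 to 0.24. The cause was not tested.

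The fall with Mix of low genes was larger on scales that add less. With a pseudocount of 0.1 it was -4.47 in the PHGDH-siRNA arm and -5.13 in the Control-siRNA arm for ALPP, -2.96 and -4.63 for METTL7A, and -2.66 and -2.73 for OLFML2A. With voom it was -4.62 and -5.33 for ALPP, -3.50 and -5.39 for METTL7A, and -2.73 and -2.78 for OLFML2A.

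Counts of called genes moved more. For PHGDH siRNA without Mix (6 called) they were 1 without the filter, 12 with quantile normalization, 0 with the replicate block or with these groups alone, 101 without the replicate 2 pair and 0 to 4 with 1 library left out. With Mix (3 called) they were 1 with a pseudocount of 0.1, 5 without the filter, 0 with the replicate block or with these groups alone, 55 without the pair and 0 to 6 with 1 library left out. Averaged (71 called) they were 14 without the filter, 39 with the replicate block, 492 without the pair and 2 to 96 with 1 library left out. The interaction (0 called, 250 at a raw p under 0.05) gave 5 without the filter and 0 in each fit with 1 library left out. Mix under PHGDH siRNA (1291 called) gave 761 without the filter, 254 with these groups alone, 3284 with the block in that arm, 2190 without the pair and 665 to 1644 with 1 library left out; under control siRNA (1391 called) it gave 2690 with these groups alone and 658 to 1223. Listed genes called with Mix numbered 24 under PHGDH siRNA (12 alone, 43 with the block in that arm, 16 to 26 with 1 library left out) and 29 under control siRNA (44 alone, 19 to 26 with 1 left out). The replicate block over all groups changed no other call of the 4 genes; a library's best match in another group had its own number in 11 of 36 cases.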
